A study of Mus musculus with 336 samples.

Results

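The genes described here are the neighbours of Arntl, the gene better known as Bmal1, on mouse chromosome 7. They were chosen by position as all genes that lie fully between 105 and 122 Mb of chromosome 7 in GRCm38, without Arntl itself, and that had a mean of at least 1 FPKM in a table. FPKM count the fragments of a gene per kilobase of its length, scaled by the size of the library. Of 445 annotated genes of that interval besides Arntl, 396 had a row in a table, 91 of them olfactory receptors. The limit of 1 FPKM left 133 genes, of which 95 are protein-coding, among 17679 genes of the whole series that passed the same limit. In fibroblasts 108 of the 133 passed, in liver slices 113 and in a short liver course 103. All 3 tables held 85 of them above the limit. No measured difference took part in the choice, but a gene high in 1 genotype can pass through that genotype alone.

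The KO groups carried the Bmal1-/- genotype and the WT groups were wild type, and the labels give a C57BL/6 strain background. KO and WT skin fibroblasts (MSF) were grown to confluence, and KO and WT liver from adult animals was cut into slices and kept on membranes. Both received 100 nM dexamethasone, a glucocorticoid that sets cellular clocks to a common phase, for 15 min, and were harvested every 3 h from 48 h later. Each genotype had 24 libraries (time labels CT00 to CT69) in each of these long courses, 1 FPKM value per time point. The short course held KO and WT liver labelled T00, T06, T12 and T24, with samples numbered 1 to 3 in each genotype at each time, and shares the treatment text of the slices. Animals per group, the number of fibroblast lines, the deleted part of Arntl and the generations of backcrossing are not stated, so a genotype may be 1 line or few animals. P-values cover only the spread among these libraries, which can be technical.

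BMAL1 pairs with CLOCK and binds E-boxes, short DNA motifs in the promoters of clock and output genes, to drive a daily rhythm of transcription. A targeted allele is made in embryonic stem cells of 1 strain and bred into another, and DNA on both sides of the target travels with it. Genes beside a deleted gene can therefore differ between knockout and wild-type animals by linked sequence or by loss of local control, as well as by loss of the protein. A difference that recurs across tissues can be looked for in the same neighbours, and the 3 comparisons here share no samples.

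Arntl lies on the plus strand at chr7:113207465-113314126. In fibroblasts its FPKM ran from 5.67 to 7.84 with a median of 6.84 in the KO libraries, and from 8.79 to 11.9 with a median of 10.6 in the WT libraries, without overlap. The difference, KO minus WT on the log2(FPKM + 1) scale used for every difference below, was -0.56 ± 0.03 (SE, adjusted p = 3.8e-24, limma). In slices the levels overlapped, at 2.57 to 5.82 in KO and 3.08 to 7.61 in WT libraries, with a difference of -0.10 ± 0.05 as deposited, not called, and 0.22 rescaled. KO samples of the short course kept means of 2.92 ± 0.34, 2.12 ± 0.42, 2.05 ± 0.48 and 2.15 ± 0.42 FPKM at the 4 times (SD, n = 3 each), against 0.301 ± 0.152, 0.986 ± 0.229, 1.74 ± 0.36 and 2.76 ± 0.37 FPKM in WT samples. Transcript was thus counted in every KO library, and a value per gene does not check a deletion of part of it. Of 16 clock genes and E-box outputs outside the interval, 3 were called higher and 9 lower in the short course, against 1.54% and 2.93% of all genes. In fibroblasts 7 were higher and 7 lower, against 37.1% and 43.7% of all genes. In slices 6 were higher and 10 lower (7 and 5 rescaled), against 6.14% and 65.7% of all genes (24.2% and 24.5% rescaled).

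Tables differed in how steady they were. FPKM totals per library ran from 801247 to 867953 in fibroblasts, 766546 to 2121562 in slices and 479770 to 1013681 in the short course, and read depth is unknown. In slices the median difference of all genes was -0.34, against -0.04 in fibroblasts and -0.01 in the short course. Slice differences are therefore given as deposited and again after rescaling the libraries by median-of-ratios factors, which brought that median to -0.01. Macrophage markers were lower in KO slices in 10 of 10 genes, with a median difference of -2.22 and summed levels of 72.9 to 520 FPKM in KO against 213 to 5694 FPKM in WT libraries. Fibroblast markers were lower there in 8 of 10 genes (6 rescaled, median difference -1.15 as deposited), and endothelial markers in 5 of 8 (1 rescaled). Summed endothelial markers had the higher median in KO slices, 890 FPKM against 781 FPKM in WT. Erythroid markers were higher in 4 of 5 (median 1.09), and hepatocyte markers higher in 3 of 10 and lower in 2 (6 and 1 rescaled). Of all genes in slices 6.14% were higher and 65.7% lower in KO (24.2% and 24.5% rescaled). The part of these lists in any slice difference below was not tested. Cell division markers were lower in KO fibroblasts in 8 of 8 genes, against 43.7% of all genes. Their sums were 40.5 to 86.4 FPKM in KO against 261 to 337 FPKM in WT libraries. In bulk samples fewer cells of a type and less RNA per cell cannot be told apart. As a check of the tissue label, fibroblast markers summed to 4609 to 6528 FPKM in KO and 3213 to 3637 FPKM in WT fibroblasts. There 8 of 10 macrophage markers and the hepatocyte markers Alb, Ttr, Fgb, Cps1, Cyp2e1, Hnf4a and Serpina1a had a median of 0. Hepatocyte markers summed to 1.46 to 3.58 FPKM in KO against 0.00526 to 0.293 FPKM in WT fibroblasts. The 1 hepatocyte marker tested was called higher in KO cells (1.67). Keratinocyte markers were called lower in 2 of 2 tested, with sums at a median of 1.41 FPKM in KO and 12.5 FPKM in WT fibroblasts. Of 7 fibroblast markers tested there, 3 were higher and 4 lower in KO cells, against 37.1% and 43.7% of all genes. Stellate and smooth muscle markers were lower in 3 of 3, and biliary markers summed to a median of 113 FPKM in KO against 701 FPKM in WT fibroblasts, with 2 of 3 tested genes higher and 1 lower. The part of these lists in the fibroblast differences was not tested either.

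In fibroblasts the neighbours moved in both directions, and about as often as other genes. Here and below, called means an adjusted p under 0.05 over all genes tested. Of 108 neighbours, 33 were called higher in KO cells, against 37.1% of all 15065 genes, and 56 were called lower, against 43.7% of all genes. With a difference of at least 1 as a further limit, 9 were higher (6.21% of all genes) and 10 were lower (9.82% of all genes). The median difference was -0.13 over the neighbours and 0.03 over the rest of chromosome 7.

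In slices the neighbours followed the shift of the whole table. As deposited 3 of 113 were called higher in KO slices (6.14% of all 14566 genes) and 71 lower (65.7% of all genes). After rescaling 26 were higher (24.2% of all genes) and 24 lower (24.5% of all genes). Their median difference was -0.34 as deposited and 0.01 rescaled. As deposited, a difference of at least 1 remained in Olfml1 alone among the higher calls (1 gene, against 1.18% of all genes) and in Igsf6 and Ilk among the lower ones (2 genes, against 4.04% of all genes).

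Of 103 neighbours in the short course, 4 were called higher in KO liver (1.54% of all 12547 genes) and 6 lower (2.93% of all genes), from 1 mean per sample number, 3 against 3. A difference of at least 1 was reached by St5 among the higher calls (1 gene, against 0.542% of all genes) and by Gde1 and Gm23262 among the lower ones (2 genes, against 0.972% of all genes). With 3 against 3, 9.71% of the neighbours were called, against 4.25% of the rest of chromosome 7 and 4.46% of all genes. Taking the 12 samples of a genotype as separate gave 7 higher (6.80%, against 6.29% of all genes) and 12 lower (11.7%, against 9.42% of all genes). These shares were not tested against each other. The calls of the 3 against 3 fit rested on few genes and depended on the samples: leaving out any 1 number left 2 or 3 higher and 2 to 4 lower.

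Neighbours moved alike in all tables at a share close to that of all genes. Of the 85 measured in all 3, none was higher in KO and 20 were lower in KO in every table, so 23.5% had one sign, against 27.7% of 10576 genes. After rescaling 9 were higher and 11 lower in every table, again 23.5%, against 27.4% of all genes. Called in one direction in all 3 was 1 neighbour, the kinase gene Wee1, against 0.927% of all genes. Rescaled it was 0, against 0.681% of all genes, since Wee1 no longer passed in slices. With 12 against 12 samples in the short course 4 neighbours were called lower in all 3 (Wee1, Ilk, Mrpl17 and Coq7), against 3.51% of all genes, and 3 of them remained after rescaling (Ilk, Mrpl17 and Coq7), against 2.11% of all genes. Opposite calls were counted in the same way. Fibroblasts and slices called 22 of 95 shared neighbours in opposite directions (23.2%, against 28.9% of 12402 genes), and 20 after rescaling (21.1%, against 20.5%), a share below or close to that of all genes. Fibroblasts and the short course had 2 such neighbours of 86 (2.33%, against 1.72%), and slices and the short course 2 of 95 (2.11%, against 0.777%), which were 3 and 0 after rescaling.

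Differences were described by distance from Arntl. In fibroblasts the median size of a difference, taken around the median of all genes, was 0.34 in 11 neighbours under 1 Mb away, 0.40 in 7 at 1 to 2 Mb, 0.42 in 36 at 2 to 4 Mb and 0.31 in 54 beyond 4 Mb, against 0.36 in the rest of chromosome 7 and 0.41 in all genes. In slices those sizes were 0.10, 0.15, 0.21 and 0.23 from near to far (0.15, 0.24, 0.19 and 0.25 rescaled), against 0.21 in the rest of chromosome 7 (0.20 rescaled). For the short course they were 0.14, 0.09, 0.13 and 0.14, against 0.16 in the rest of chromosome 7. There 2 of 8 neighbours under 1 Mb were called, 0 of 5 at 1 to 2 Mb, 3 of 35 at 2 to 4 Mb and 5 of 55 beyond, against 4.46% of all genes. With 12 against 12 samples those counts were 3, 0, 3 and 13, against 6.29% of all genes called higher and 9.42% lower. The bins nearest Arntl hold few genes and none of these medians or counts was tested.

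**Figure D1:**
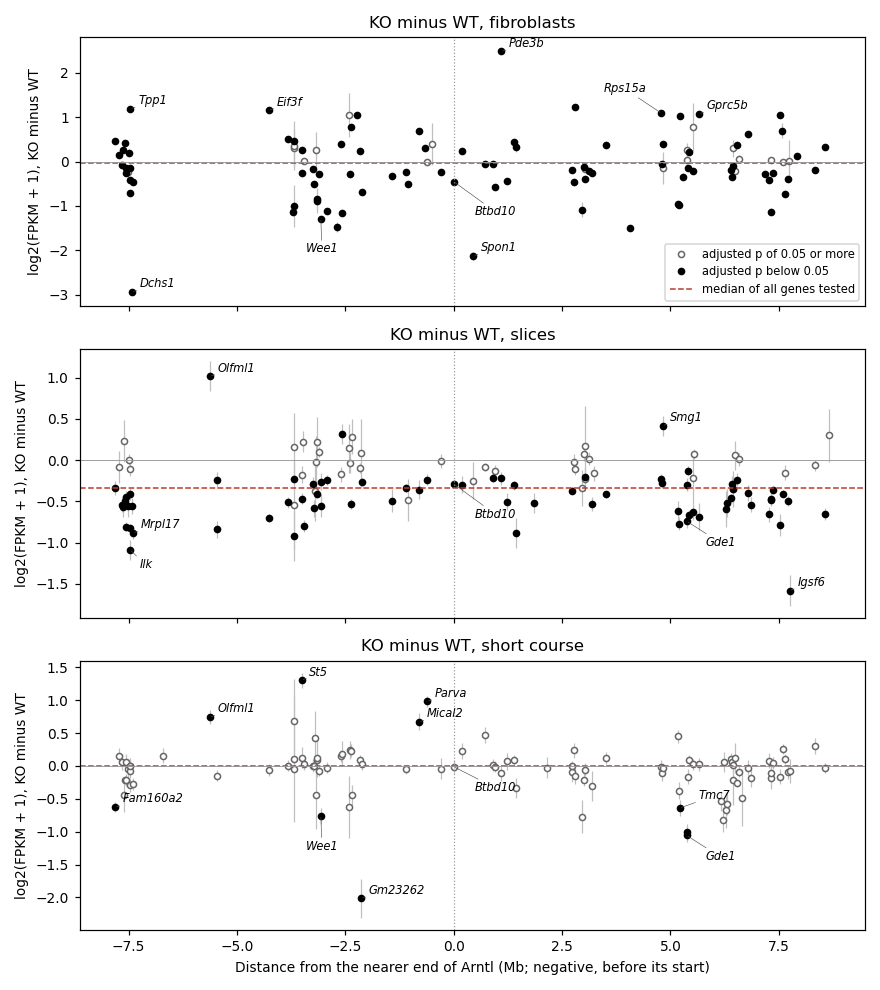
Difference between KO and WT (log2(FPKM + 1), vertical axis, bars are SE) of each neighbour against its distance from the nearer end of Arntl in Mb (horizontal axis), in fibroblasts, slices and the short course. Filled points passed an adjusted p below 0.05, the dashed line is the median of all genes (-0.34 in slices), and high and low genes lie at both ends of the interval as well as near Arntl.

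Btbd10, which encodes a BTB domain protein, is the closest neighbour. It lies 1499 bases beyond the end of Arntl on the other strand, so the genes are tail to tail. In fibroblasts it had 4.39 to 6.41 FPKM with a median of 5.06 in KO libraries, against 6.31 to 8.14 with a median of 7.38 in WT libraries. Of 24 KO libraries 23 lay below every WT library (difference -0.45 ± 0.03, adjusted p = 1.9e-20, limma). In slices its difference was -0.29 ± 0.05 as deposited and 0.06 rescaled, where it was not called (adjusted p = 0.37). The short course gave -0.01 ± 0.10, with ranges of 0.775 to 4.98 FPKM in KO and 0.804 to 4.80 FPKM in WT samples that covered each other.

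Further out on that side, Far1, whose enzyme makes fatty alcohols for ether lipids, was higher in KO fibroblasts by 0.23 ± 0.03 (adjusted p = 3.3e-08, limma). Spon1 encodes F-spondin, a secreted matrix protein, and had the second largest fall in fibroblasts at -2.13 ± 0.09 (adjusted p = 1.9e-26, limma). Its levels climbed through the course in both genotypes, with means of 1.40 ± 0.34, 2.11 ± 0.26 and 3.03 ± 0.31 FPKM on the 3 days in KO cells, against 6.00 ± 2.71, 14.9 ± 2.5 and 23.03 ± 2.503 FPKM in WT cells (SD over 8 time points). In slices Spon1 ran from 0.578 to 22.3 FPKM in KO and 0.961 to 9.48 FPKM in WT libraries, with no call. Rras2, a small GTPase gene on the other strand, lies 3411 bases beyond the end of Spon1, tail to tail with it. Rras2 differed by only -0.06 ± 0.02 in fibroblasts (-0.01 rescaled). Copb1 and Psma1 follow, for a coat protein of Golgi vesicles and a proteasome subunit. Psma1 had 46.6 to 55.5 FPKM in KO and 71.5 to 79.7 FPKM in WT fibroblasts, without overlap, while Copb1, 9894 bases away, differed by -0.04 ± 0.01 (0.00 rescaled).

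On the other side of Arntl, Tead1 encodes a DNA-binding partner of YAP and TAZ. It was lower in KO fibroblasts by -0.23 ± 0.03 (adjusted p = 7e-10, limma), and in slices its difference was -0.01 as deposited and 0.35 rescaled. Dkk3, a secreted member of the Dickkopf family, had 31.5 to 44.4 FPKM in KO and 50.7 to 58.2 FPKM in WT fibroblasts, without overlap. Parvaos, an antisense gene inside Parva, was higher in KO fibroblasts by 0.31 ± 0.05, on 1.41 FPKM in KO and 0.999 FPKM in WT libraries at the median. Use of strand in the authors' counting is not stated, so reads of Parva and Parvaos may be shared.

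Role lists, here and below, were counted and not tested as sets. Among genes of adhesion, cytoskeleton and signalling, 5 of 10 were called higher and 4 lower in KO fibroblasts, against 37.1% and 43.7% of all genes. In KO slices 0 were higher and 7 lower (2 and 4 rescaled), against 6.14% and 65.7% of all genes (24.2% and 24.5% rescaled). In KO liver of the short course 2 were higher, against 1.54% of all genes. Those 2 were Parva and Mical2. Parva encodes alpha-parvin, which binds integrin-linked kinase at focal adhesions. Across the short course Parva had 12.96 to 35.4 FPKM with a median of 20.4 in KO samples, against 5.65 to 18.3 with a median of 9.56 in WT samples. All 3 KO samples lay above all 3 WT samples at each of the 4 times. Time means were 30.9, 23.3, 18.4 and 14.5 FPKM in KO liver, against 14.7, 13.4, 8.37 and 6.24 FPKM in WT liver. The difference was 0.98 ± 0.08 (adjusted p = 0.0037, limma), and stayed called when any 1 sample number was left out. In fibroblasts Parva did not pass (-0.01 ± 0.03, adjusted p = 0.83, on 93.6 to 140 FPKM in KO and 96.5 to 145 FPKM in WT libraries). In slices it was lower by -0.24 ± 0.07 as deposited and 0.14 above WT after rescaling, where it was not called.

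Mical2 encodes an enzyme that oxidises actin and takes filaments apart. It was higher in KO fibroblasts, at 33.2 to 50.9 FPKM against 19.2 to 34.8 FPKM in WT libraries, where 23 of 24 KO libraries lay above every WT library (0.69 ± 0.03, adjusted p = 2.8e-24, limma). Short-course levels were 3.08 to 6.46 FPKM in KO and 1.61 to 4.30 FPKM in WT samples (0.67 ± 0.13, adjusted p = 0.042, limma). That call was lost without any 1 of the 6 sample numbers (adjusted p between 0.0616 and 0.154). In slices the difference was -0.36 ± 0.12 as deposited and 0.01 rescaled. Ilk, the gene of integrin-linked kinase itself, was lower. Its FPKM ran from 76.96 to 101 in KO and 102 to 131 in WT fibroblasts, without overlap (-0.41 ± 0.03), and from 13.4 to 78.3 in KO and 50.6 to 115 in WT slices (-1.09 ± 0.12 as deposited, -0.69 rescaled, adjusted p = 1.3e-10 and 5.5e-06, limma). For Ilk in the short course, 11.1 to 21.4 FPKM in KO stood against 15.2 to 28.3 FPKM in WT samples (-0.29 ± 0.10, adjusted p = 0.15, and 0.02 with 12 against 12 samples). Ilk overlaps Rrp8 and Taf10 on the other strand. Plekha7, of epithelial adherens junctions, had 2.21 to 5.56 FPKM in KO and 0.398 to 1.43 FPKM in WT fibroblasts, and Rnf141, a RING finger gene, 8.24 to 11.99 FPKM in KO and 4.30 to 7.18 FPKM in WT fibroblasts. Both were without overlap there. Rnf141 was lower in KO slices by -0.53 ± 0.06 (-0.17 rescaled), while Plekha7 was not called.

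Ilk and Mical2 are shown by their promoters because they moved in opposite directions in fibroblasts and each holds the E-box CACGTG. The letters are RefSeq's of GRCm38.p6 from 250 bases before to 50 bases after the annotated start, both on the plus strand, with the motif in capitals. The Ilk window is chr7:105736340-105736639 and the Mical2 window chr7:112225586-112225885, and the motif begins 150 bases before the start in Ilk and 165 bases before it in Mical2.
Ilk: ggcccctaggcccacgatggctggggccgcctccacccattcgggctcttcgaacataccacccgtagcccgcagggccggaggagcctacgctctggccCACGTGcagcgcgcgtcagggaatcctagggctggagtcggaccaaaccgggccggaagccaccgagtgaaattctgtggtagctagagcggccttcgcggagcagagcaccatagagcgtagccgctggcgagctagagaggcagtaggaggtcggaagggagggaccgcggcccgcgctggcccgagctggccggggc
Mical2: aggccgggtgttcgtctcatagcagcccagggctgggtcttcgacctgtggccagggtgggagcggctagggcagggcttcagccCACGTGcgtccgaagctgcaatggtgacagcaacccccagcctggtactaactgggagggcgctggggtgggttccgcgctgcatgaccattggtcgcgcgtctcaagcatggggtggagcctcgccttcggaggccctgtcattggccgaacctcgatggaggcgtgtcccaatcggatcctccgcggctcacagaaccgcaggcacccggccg
CACGTG reads the same on both strands. It was in the windows of 11 of 80 neighbours that have one, or 13.8%, against 8.09% of 27025 genes. Unlike the neighbours, those 27025 genes were not limited to 1 FPKM, so the shares are of unlike sets. The other neighbours, Wee1, Parva, St5 and Fam160a2 among them, had no window and were not searched for the motif. A neighbour with several windows counted if any of them held the motif, and the shares were not tested. Of these 11, 9 were tested in fibroblasts. Mical2, Eif3f and Eef2k were higher in KO cells, Ilk, Ipo7, Akip1, Ampd3 and Usp31 were lower, and Polr3e was not called (0.00 ± 0.02, adjusted p = 0.91, limma). Of all genes in fibroblasts 37.1% were called higher and 43.7% lower. A match of letters is not a bound site.

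Among genes of the cell cycle and genome upkeep, 9 of 13 were called lower and 2 higher in KO fibroblasts, against 43.7% and 37.1% of all genes. In slices 8 were lower and 1 higher (2 and 6 rescaled), against 65.7% and 6.14% of all genes (24.5% and 24.2% rescaled). The 13 include Palb2, which is not among the neighbours of Arntl. In the short course 1 of 12 was lower, against 2.93% of all genes. Wee1, whose kinase holds back entry into mitosis and whose mouse gene is a known E-box target of CLOCK and BMAL1, led this group. Its FPKM ran from 2.17 to 3.44 with a median of 2.66 in KO and 7.18 to 9.88 with a median of 7.92 in WT fibroblasts, without overlap (-1.29 ± 0.03, adjusted p = 9.7e-36, limma). The cell division markers given above were lower in the same KO cells, and their part in the Wee1 difference was not tested. Over the short course Wee1 was highest at T06 in both genotypes. Its means were 1.23, 6.74, 3.54 and 1.98 FPKM at the 4 times in KO liver, against 2.60, 9.51, 6.60 and 5.86 FPKM in WT liver. KO and WT samples were apart at T12 and T24 (-0.76 ± 0.12 over all times, adjusted p = 0.023, limma), but the call held in only 1 of 6 fits that left out a sample number, and without T24 the adjusted p was 0.157. In slices the level was near the limit of 1 FPKM, 0.363 to 2.66 in KO and 0.613 to 2.72 in WT libraries, and the difference was -0.26 ± 0.10 as deposited and -0.05 rescaled.

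Taf10, a subunit of TFIID and SAGA, was lower in KO slices by -0.83 ± 0.05 (-0.43 rescaled) and in KO fibroblasts by -0.14 ± 0.05 (-0.10 rescaled, not called). Rrp8, a nucleolar methyltransferase gene, had 14.4 to 24.95 FPKM in KO and 20.9 to 33.5 FPKM in WT fibroblasts (-0.70 ± 0.05, adjusted p = 7.6e-18, limma). Smg1, the kinase of nonsense-mediated decay, was higher in KO fibroblasts by 0.41 ± 0.04 and in KO slices by 0.42 ± 0.12 (0.80 rescaled). The short course gave Smg1 a difference of -0.04 ± 0.08 with an adjusted p of 0.82.

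Genes of translation and the proteasome split evenly in fibroblasts, 5 of 10 called higher and 5 lower in KO cells, against 37.1% and 43.7% of all genes. In slices 8 were lower and 0 higher (3 and 5 rescaled), against 65.7% and 6.14% of all genes (24.5% and 24.2% rescaled). Among the 10, limma called 0 in the short course, with 2 at an unadjusted p below 0.05. Eif3f, a subunit of the initiation factor eIF3, had 109 to 149 FPKM with a median of 125 in KO and 45.5 to 64.6 with a median of 55.4 in WT fibroblasts (1.16 ± 0.03, adjusted p = 2.9e-35, limma). In slices it went the other way, with 58.5 to 108 FPKM and a median of 76.8 in KO and 108 to 145 with a median of 124 in WT libraries (-0.70 ± 0.05, and -0.30 rescaled, adjusted p = 6.8e-06). Its levels overlapped fully in the short course (-0.06 ± 0.09). Eef2k, the kinase that slows elongation, showed the same pair of directions, 21.9 to 29.5 FPKM in KO and 10.05 to 15.96 FPKM in WT fibroblasts (1.05 ± 0.04), but 1.199 to 15.1 FPKM in KO and 5.72 to 13.8 FPKM in WT slices (-0.79 ± 0.14, rescaled -0.45). Rps15a, a small-subunit ribosomal protein gene whose processed copies may share reads with it, had 388 to 513 FPKM in KO and 167 to 260 FPKM in WT fibroblasts. In slices its difference was -0.23 as deposited and 0.18 rescaled. Mrpl17, of the mitochondrial ribosome, was lower in KO fibroblasts (-0.45 ± 0.02) and KO slices (-0.88 ± 0.07, rescaled -0.48), and had 50.9 to 83.4 FPKM in KO and 60.3 to 89.9 FPKM in WT samples of the short course (-0.28 ± 0.09, adjusted p = 0.16, and 0.014 with 12 against 12 samples).

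A list of 6 genes of the mitochondrion includes Ndufab1 and Ears2, which are not among the neighbours of Arntl. Of the 6, 1 was called higher and 2 lower in KO fibroblasts (3 and 2 rescaled), against 37.1% and 43.7% of all genes. In KO slices 0 were higher and 5 lower (2 and 2 rescaled), against 6.14% and 65.7% of all genes (24.2% and 24.5% rescaled). In the short course limma called 0, with 1 at an unadjusted p below 0.05. Coq7 encodes a hydroxylase of ubiquinone synthesis. It had 2.90 to 5.62 FPKM in KO and 7.44 to 10.6 FPKM in WT fibroblasts, without overlap (-0.98 ± 0.05, adjusted p = 1.3e-24, limma), and was lower in KO slices at all 24 times (-0.77 ± 0.08, rescaled -0.39). Its short-course difference was -0.38 ± 0.13 (adjusted p = 0.15, and 0.044 with 12 against 12 samples). Timm10b, of the import machinery of the inner membrane, had 56.3 to 110 FPKM in KO and 118 to 176 FPKM in WT slices, without overlap (-0.81 ± 0.05, rescaled -0.41). Uqcrc2, a core subunit of respiratory complex III, was lower in KO slices by -0.48 ± 0.07 (-0.09 rescaled, not called).

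Genes of lysosomes, traffic and coats included a higher and a lower gene in the short course. In fibroblasts 5 of 14 were called higher and 8 lower in KO cells (6 and 5 rescaled), against 37.1% and 43.7% of all genes. In slices 0 were higher and 12 lower (2 and 2 rescaled), against 6.14% and 65.7% of all genes (24.2% and 24.5% rescaled). The 14 include Gga2, which is not among the neighbours of Arntl. In the short course St5 was called higher and Gde1 lower, against 1.54% and 2.93% of all genes. Gde1 encodes a glycerophosphodiester phosphodiesterase. Its short-course levels were 15.8 to 39.4 FPKM with a median of 24.7 in KO and 29.9 to 79.3 with a median of 57.3 in WT samples, and the 3 KO samples were below the 3 WT samples at every time. Time means were 17.4, 21.1, 31.3 and 28.9 FPKM in KO liver, against 33.2, 51.2, 66.99 and 59.4 FPKM in WT liver (-1.06 ± 0.10, adjusted p = 0.0057, limma, called in 6 of 6 fits that left out a sample number). In slices Gde1 was lower in KO at all 24 times (-0.74 ± 0.08, rescaled -0.35, adjusted p = 2.1e-11 and 0.00039). In fibroblasts it had 20.7 to 26.7 FPKM in KO and 19.8 to 25.4 FPKM in WT libraries, and the difference of 0.04 ± 0.02 was not called as deposited (adjusted p = 0.065) but was at 0.09 after rescaling. Gm45236, a short unclassified transcript on the other strand at the same place as the end of Gde1, was lower in KO liver by about as much and may share its reads.

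St5, also called Dennd2b, encodes a DENN domain protein of the family that activates Rab GTPases. Its short-course FPKM ran from 4.39 to 24.1 with a median of 12.4 in KO and 2.14 to 7.21 with a median of 3.82 in WT samples (1.30 ± 0.11, adjusted p = 0.0039, limma). The gap was widest at T00, where KO samples averaged 20.8 ± 3.2 FPKM and WT samples 4.54 ± 1.26 FPKM (SD, n = 3 each), and without T00 the adjusted p was 0.0659. At T24 the means were 5.83 ± 1.30 FPKM in KO and 2.58 ± 0.44 FPKM in WT samples. St5 was also higher in KO fibroblasts, by 0.26 ± 0.04, and not called in slices (-0.18 as deposited, 0.20 rescaled).

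Tpp1, which encodes a lysosomal peptidase, rose in KO fibroblasts, with 63.4 to 80.7 FPKM against 28.6 to 34.8 FPKM in WT libraries and no overlap (1.19 ± 0.02, adjusted p = 7.4e-47, limma). It was lower in KO slices as deposited (-0.41 ± 0.07) and level with WT after rescaling (-0.01), and the short course gave 0.00 ± 0.10. Swap70, of actin and phosphoinositide binding, had 7.24 to 9.65 FPKM in KO and 15.8 to 20.4 FPKM in WT fibroblasts (-1.11 ± 0.01). Ipo7, the nuclear import receptor importin 7, had 20.6 to 24.1 FPKM in KO and 36.3 to 44.1 FPKM in WT fibroblasts (-0.85 ± 0.02). In slices these were -0.24 and -0.42 as deposited and 0.12 and -0.02 rescaled, uncalled after rescaling.

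**Figure D2:**
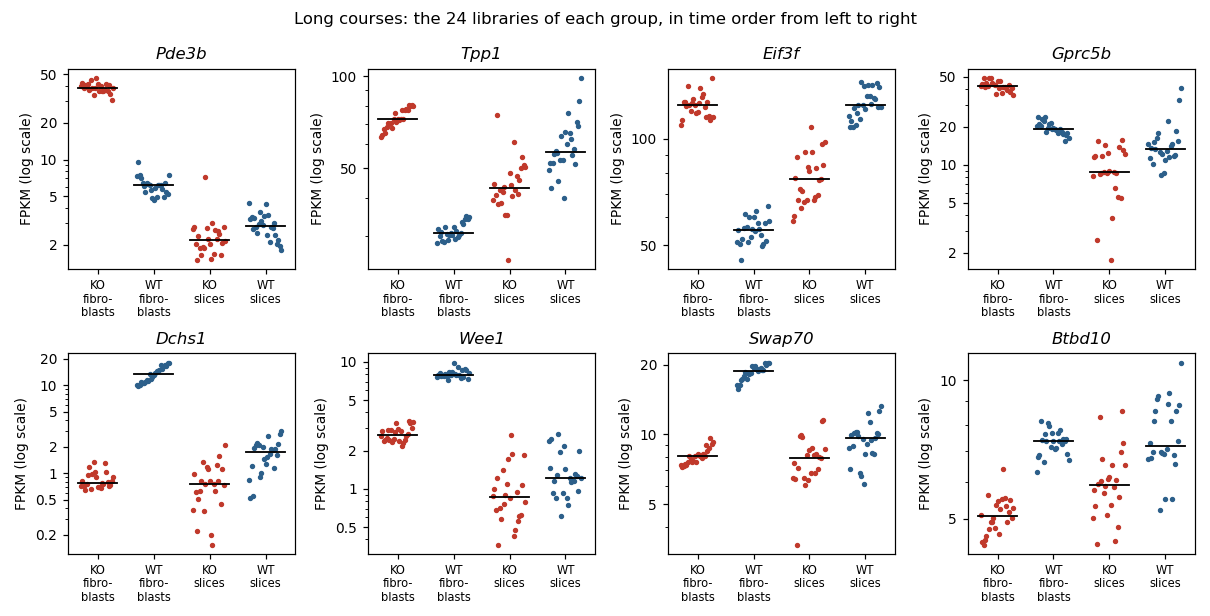
FPKM (log axis) of 8 neighbours in KO and WT fibroblasts and KO and WT slices, 1 point per library in time order within each group, with the median as a line. The upper row holds genes that were higher in KO fibroblasts, such as Pde3b at a median of 38.8 in KO and 6.20 in WT libraries, and the lower row genes that were lower, such as Dchs1 at 0.779 in KO and 13.2 in WT libraries.

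Genes of lipid and small-molecule metabolism held the largest rise in fibroblasts. Pde3b, a cyclic AMP phosphodiesterase through which insulin acts in fat and liver, had 30.8 to 47.1 FPKM with a median of 38.8 in KO and 4.64 to 9.60 with a median of 6.20 in WT fibroblasts (2.49 ± 0.04, adjusted p = 2.4e-41, limma). In slices its difference was -0.22 ± 0.08 as deposited and 0.06 rescaled, and in the short course -0.11 ± 0.11. Xylt1, whose enzyme starts the sugar chains of proteoglycans, had 0.405 to 1.47 FPKM in KO and 2.77 to 5.602 FPKM in WT fibroblasts (-1.51 ± 0.04). Nucb2, the precursor of nesfatin-1, was lower in KO fibroblasts by -0.25 ± 0.02 and in KO slices by -0.53 ± 0.08 (-0.14 rescaled, not called). Over the list 3 of 8 were called higher and 4 lower in KO fibroblasts, against 37.1% and 43.7% of all genes. In KO slices 0 of 10 were higher and 7 lower (2 and 1 rescaled), against 6.14% and 65.7% of all genes (24.2% and 24.5% rescaled). In the short course limma called 0 of 11, with 2 at an unadjusted p below 0.05. Acsm5 and Acsm1, medium-chain acyl-CoA synthetases of liver mitochondria, had 0.751 to 31.6 and 3.20 to 137 FPKM in KO samples, against 4.05 to 45.5 and 20.5 to 164 FPKM in WT samples of the short course. Their differences were -0.81 ± 0.19 (adjusted p = 0.064, and 0.0073 with 12 against 12 samples) and -0.67 ± 0.27 (adjusted p = 0.22). Hpx, the haem-binding plasma protein hemopexin, is the most abundant liver gene of those named, at a median of 1853 FPKM in KO and 2427 FPKM in WT samples there (-0.44 ± 0.27, adjusted p = 0.4). Hepatocyte markers summed to 7174 to 35504 FPKM in KO and 10210 to 40617 FPKM in WT samples of that course, with 0 of 10 called by limma and 3 at an unadjusted p below 0.05.

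Among secreted factors, receptors and matrix genes, 5 of 6 were called lower and 1 higher in KO fibroblasts, against 43.7% and 37.1% of all genes. In KO slices 4 of 9 were lower and 2 higher (2 and 3 rescaled), against 65.7% and 6.14% of all genes (24.5% and 24.2% rescaled). In the short course 1 of 5 was higher, against 1.54% of all genes. Dchs1, a giant cadherin that pairs with FAT4 across cells, fell most in fibroblasts, to 0.633 to 1.35 FPKM in KO cells, against 9.80 to 18.02 FPKM in WT cells (-2.94 ± 0.05, adjusted p = 8.7e-43, limma). It was lower in KO slices as well, at 0.153 to 2.09 FPKM against 0.517 to 3.02 FPKM in WT libraries (-0.56 ± 0.10, rescaled -0.36, adjusted p = 1.6e-06 and 0.0019). Only 754 bases separate Dchs1 from Tpp1, which was higher in KO fibroblasts, and both lie on the minus strand. Gprc5b, an orphan receptor gene, had 36.04 to 49.1 FPKM in KO and 15.5 to 23.9 FPKM in WT fibroblasts (1.08 ± 0.03), and in slices its difference was -0.68 ± 0.16 as deposited and -0.32 rescaled, not called. Adm encodes the vasodilator peptide adrenomedullin. It was lower in KO fibroblasts, at 14.3 to 50.3 FPKM against 34.4 to 90.8 FPKM in WT libraries (-1.15 ± 0.05), and higher in KO slices, at 34.2 to 165 FPKM against 30.02 to 77.98 FPKM in WT libraries (0.32 ± 0.12, rescaled 0.72, adjusted p = 0.017 and 4.5e-06).

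Olfml1, a secreted olfactomedin-like protein gene, was the neighbour called higher in both liver tables. Its short-course means were 13.3, 5.89, 4.34 and 3.95 FPKM in KO liver, against 8.72, 4.63, 1.96 and 0.899 FPKM in WT liver, and the 3 KO samples were above the 3 WT samples at all 4 times (0.75 ± 0.10, adjusted p = 0.015, limma). The call held in 1 of 6 fits that left out a sample number, with differences from 0.67 to 0.85. In slices Olfml1 had a median of 2.21 FPKM and up to 27.4 in KO, and a median of 0.757 and up to 1.80 in WT libraries, and the KO value was the higher at all 24 times (1.02 ± 0.18, rescaled 1.24). Its means on the 3 days were 6.18, 3.29 and 1.48 FPKM in KO slices, against 0.872, 0.910 and 0.653 FPKM in WT slices. Olfml1 thus passed the limit of 1 FPKM in slices through the KO libraries, where it was high. Igsf6, an immunoglobulin family receptor of myeloid cells, had 0.447 to 7.0002 FPKM in KO and 2.56 to 38.5 FPKM in WT slices (-1.58 ± 0.19, rescaled -1.27, adjusted p = 3.8e-10 and 2.9e-07). The macrophage markers given above were lower in the same slices, and their part in this was not tested. In the short course Igsf6 had 0.970 to 7.61 FPKM in KO and 0.991 to 10.4 FPKM in WT samples and was not called (-0.07 ± 0.18), and limma called 0 of 10 macrophage markers there, with 6 at an unadjusted p below 0.05 and 5 called with 12 against 12 samples. Lyve1, the hyaluronan receptor of lymphatic and liver sinusoidal endothelium, was not called in slices as deposited (0.28 ± 0.21) and was higher by 0.67 rescaled, and in the short course had a difference of -0.44 ± 0.16 (adjusted p = 0.17).

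Outside these groups, Fam160a2 and Tmc7 were called higher in KO fibroblasts and lower in KO liver of the short course. Fam160a2, a subunit of a complex that links Hook proteins to vesicles, averaged 2.72, 3.05, 5.02 and 6.03 FPKM over the 4 times in KO liver, against 3.03, 4.31, 9.88 and 14.6 FPKM in WT liver. KO and WT samples overlapped at T00 and T06 and were apart at T12 and T24 (-0.62 ± 0.08 over all times, adjusted p = 0.013, limma, and 0.0916 without T24), and the call held in 3 of 6 fits that left out a sample number (adjusted p up to 0.0821). In fibroblasts it had 7.24 to 11.6 FPKM in KO and 5.04 to 7.39 FPKM in WT libraries (0.47 ± 0.04). Tmc7, of a family of membrane channels, was low in both tables, 0.248 to 1.38 FPKM in KO and 0.933 to 3.53 FPKM in WT liver (-0.64 ± 0.12, adjusted p = 0.041), and 1.41 to 3.31 FPKM in KO and 0.186 to 1.01 FPKM in WT fibroblasts (1.03 ± 0.06). The short-course call for Tmc7 was lost without any 1 sample number. Rras2 rose through the short course in both genotypes and its means at T24 were 37.6 ± 3.2 FPKM in KO and 19.6 ± 7.7 FPKM in WT liver, with an adjusted p of 0.092 over all times and 0.0077 with 12 against 12 samples. The remaining call in that course was Gm23262, a small nucleolar RNA within the Eif4g2 locus, listed at 0 FPKM in 8 of 12 KO samples, in a library made from poly(A) RNA. Its call held in 1 of 6 fits that left out a sample number (adjusted p up to 0.0969) and was lost with no filter (adjusted p = 0.0726), without T06 (0.0618) and without T24 (0.1).

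**Figure D3:**
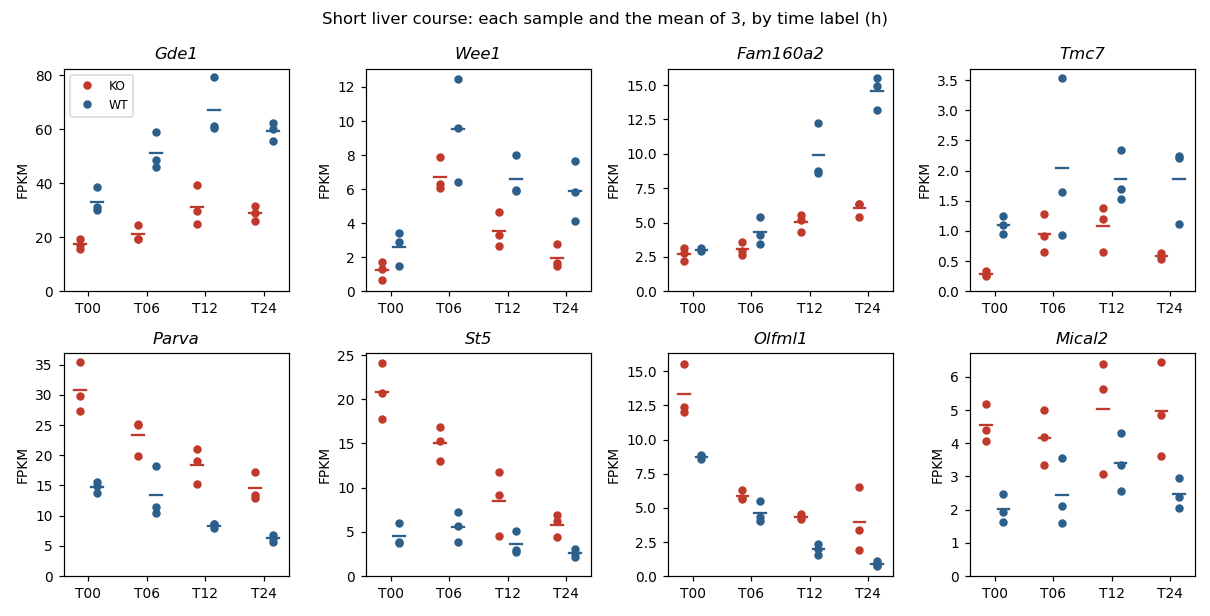
FPKM (vertical axis) of the 8 named neighbours called in the short course at T00, T06, T12 and T24, with each KO sample left of each WT sample and a bar at the mean of 3. Gde1 is lower in every KO sample than in every WT sample of the same time, Parva and Olfml1 are higher, and the other genes are apart at 2 or 3 of the 4 times.

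Daily waves among the neighbours were few. A wave is a 24 h cosine and sine fitted with a linear trend within a genotype, and its amplitude is the height of the fitted curve on the log2 scale. In KO slices 6 of 113 neighbours were called, against 11.5% of all genes, and in WT slices 2 were called, against 2.05% of all genes. None of 108 was called in KO fibroblasts (0% of all genes, 6 neighbours at an unadjusted p below 0.05, limma) or in WT fibroblasts (0.0332% of all genes, 9 neighbours at an unadjusted p below 0.05, limma). In KO slices Smg1 and Pik3c2a, a class II phosphoinositide 3-kinase gene, peaked at 15.96 and 15.97 h with amplitudes of 0.48 ± 0.12 and 0.30 ± 0.06 (adjusted p = 0.043 and 0.0161). Ppfibp2, a liprin gene, peaked at 2.62 h and Timm10b at 5.04 h. In WT slices Igsf6 peaked at 17.5 h with an amplitude of 0.77 ± 0.13 and Itpripl2, related to a protein that binds the inositol trisphosphate receptor, at 18.1 h with 0.30 ± 0.06 (adjusted p = 0.0351 and 0.0486). Whether KO and WT waves differ was not tested. Without the second or the third day 0 of the 6 KO calls and 0 of the 2 WT calls remained. Arntl had an amplitude of 0.16 ± 0.05 in KO and 0.20 ± 0.06 in WT slices, and neither was called.

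**Figure D4:**
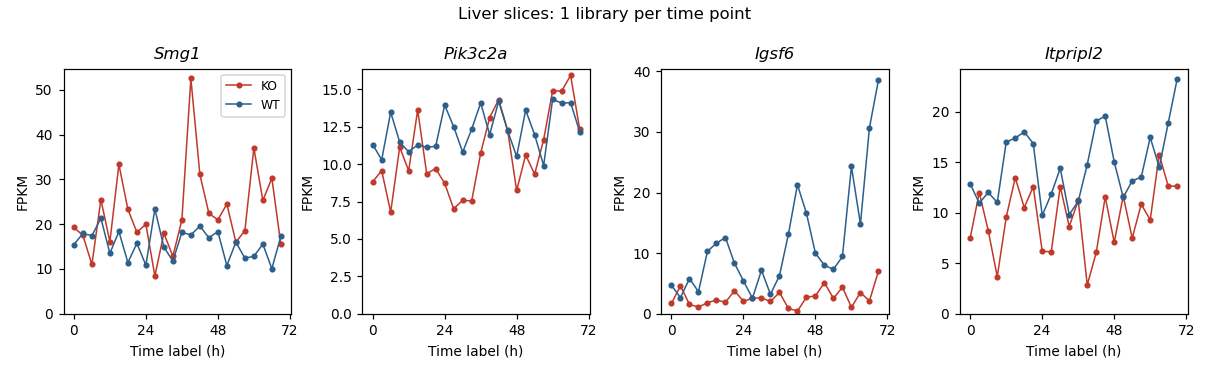
FPKM (vertical axis) against the time label in hours (horizontal axis) in KO and WT slices, 1 library per point, for Smg1 and Pik3c2a, called in KO slices, and Igsf6 and Itpripl2, called in WT slices. WT values of Igsf6 climb to 38.5 by the third day while KO values stay at or below 7.0002.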

How the data were processed

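Libraries of poly(A) RNA were read as single ends in KO and WT fibroblasts, liver slices and liver, per the labels. Reads had 50 bases in fibroblasts and slices, and no read length is listed for the short course. The authors aligned reads to GRCm38 with TopHat2 2.1.0 and computed FPKM with Cuffdiff, per the submitters' processing notes, and deposited 1 FPKM value per gene and library, with runs merged. How libraries were scaled to each other and whether strand was used is not stated. The fibroblast table also flags values, and 80 flagged genes were left out, none of them a neighbour of Arntl. Per-sample columns left unused numbered 0. Depth is unknown, so no counting interval is given.

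Positions came from GENCODE vM21, matched by gene ID. Differences are KO minus WT on log2(FPKM + 1), with a pseudocount of 1, for genes whose mean reached 1 FPKM, by limma 3.58.1 in R 4.3.3 with a variance trend, adjusted by Benjamini and Hochberg over all genes tested. Long courses were fitted over 24 against 24 libraries with a 24 h wave and a linear trend. The short course was fitted on 1 mean per genotype and sample number. The fits were tested on simulated data. Sequences are RefSeq's (GRCm38.p6).

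Genes were named by rule: Arntl, the 5 nearest on each side, those called in one direction in all 3 comparisons, the 4 highest and 4 lowest of each comparison with at least 5 FPKM, up to 6 called in opposite directions, up to 3 per role list by smallest adjusted p, and up to 3 per wave fit, passing over numbered gene models (Gm23262 and Gm45236 were named after their values were seen). The members, lists, tests and rule were chosen with earlier results of these data known. Alternatives were a pseudocount of 0.1, no filter, median-of-ratios factors, no wave or trend terms, a size limit of 1, leaving out each day or sample number, time point and replicate blocks, and 12 against 12 samples. Leaving out 6 slice libraries of low correlation, each short-course time or KO number 2 at T24, and 12 against 12 samples with rescaling, were added after seeing the data.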

Additional observations from a re-analysis of the deposited data

How the results depend on the processing

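Under rescaling by median-of-ratios factors the slice calls were 26 higher and 24 lower, and no neighbour (0) was called in one direction in all 3 comparisons. Differences of named genes that changed sign included these 16: Copb1 in fibroblasts (0.0019), and in slices Arntl (0.2219), Tead1 (0.3451), Parva (0.144), Mical2 (0.0135), Btbd10 (0.0593), Far1 (0.0376), Rras2 (0.3106), Copb1 (0.1747), Rps15a (0.1754), Pde3b (0.0631), Fam160a2 (0.0297), Rrp8 (0.2797), Psma1 (0.2666), Swap70 (0.115) and Pik3c2a (0.1675). St5, not called in slices, changed sign there as well, with the values given above. The size limit of 1 left 9 higher and 10 lower in fibroblasts, 1 and 2 in slices, and 1 and 2 in the short course. Without day 3, 1 was higher in slices. The short course gave 2 higher and 3 lower with no filter (more genes tested), 7 and 12 with 12 against 12 samples, 1 and 3 without T00, 2 lower without T24, and 2 to 3 higher and 2 to 4 lower when 1 sample number was left out. Of 85 neighbours in all 3 tables, one sign was shared by 13 of the 48 with at least 5 FPKM, none of which (0) was called in all 3, and by 9 of the 43 within 4 Mb. Called in all 3 were 4 with 12 against 12 samples, and 3 of them after rescaling as well. Wave calls in KO slices were 13 with no trend term, 1 with no filter, 16 without day 1 and 0 without day 2 or day 3. In WT slices they were 6 with no trend term and 0 with no filter or without any 1 day. The cause of these changes was not tested. Shares of all genes under most of these alternatives are not given here, so the counts are not read as a trait of the neighbours.

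The sample numbers did not pair the genotypes (correlations of deviations -0.082, -0.02 and 0.04), and with a replicate block 3 neighbours were higher and 4 lower. Within a genotype, deviations of the same number at different times correlated at a median of 0.021 in KO and 0.041 in WT samples. Whether a number is 1 animal is not stated. Other counts over all neighbours stayed within 1.5 times of those given. Rescaling also moved the fibroblast calls to 3 higher among mitochondrial genes and 5 lower among genes of lysosomes, traffic and coats. FPKM carry no depth, so low genes such as Tmc7 and Wee1 in slices are the least certain.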
